A study of Mus musculus with 6 samples.

Results

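VL30 elements are mouse retrotransposons whose transcripts were followed here through 5 of the 1336 rows of a table of repeat RNA. The members were taken by name, as the rows starting with MMVL30 and those starting with RLTR6 when no further digit follows. Of the 5 rows, 2 are internal regions, MMVL30-int and RLTR6-int, and 3 are long terminal repeats (LTRs), RLTR6_Mm, RLTR6B_Mm and RLTR6C_Mm. The files place all of them in the LTR class and in the ERV1 family of gammaretrovirus-like elements, which holds 118 rows. KO cells are mouse embryonic fibroblasts without β-actin, the protein product of Actb, and WT cells are fibroblasts with the gene intact. The labels give both genotypes the strain BALB/c and embryos of 10.5 days, with 3 biological replicates each, and name no agent or treatment. Total RNA was sequenced after removal of ribosomal RNA. The labels do not say whether the replicates came from separate embryos or cultures, so p-values below measure the spread between these libraries, which may in part be technical. No row is a protein-coding gene, so neither Actb nor fibroblast markers could be checked.

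A VL30 element is built like a retrovirus, with an internal region between a pair of identical LTRs, but it lacks working viral genes. The LTR starts and ends the transcript, and in fibroblasts it is known to respond to serum, growth factors and stress. VL30 RNA is also known as a passenger: particles of murine leukaemia virus package it and carry it to other cells. Many LTR copies in the genome stand alone after recombination has removed the internal region, so LTR reads can come from full elements, from solitary LTRs or from genes that run through them. Each row is a sum over all genomic copies, and these sources cannot be told apart here.

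Library totals ranged from 7708630 to 19288620 counts, and counts outside rRNA from 2859992 to 5210011. The rRNA share of the counts was 84.8%, 52.9% and 77.0% in KO replicates 1, 2 and 3, against 32.4%, 84.1% and 73.7% in WT replicates 1, 2 and 3. Levels are therefore given as normalized CPM, counts scaled to an effective library size that the bulk of the repeat rows sets (by the trimmed mean of M-values) and the rRNA does not. On this scale the median log2 fold change of all 1193 tested rows was 0.01. The scaling itself keeps this median small, so the value is no check on the scale. Levels are per row, not per base of sequence, so different rows can be compared by their fold changes and not by their levels.

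None of the VL30 and RLTR6 rows passed the test between KO and WT cells. All 5 had enough counts to be tested, and 0 were called by edgeR's quasi-likelihood test with Benjamini-Hochberg adjustment over all 1193 rows and a threshold of 0.05. Of all tested rows 69 were called, 5.78%, with 2.18% higher and 3.60% lower in KO. At an unadjusted p under 0.05 the count was 1 of 5, MMVL30-int, against 249 of 1193 rows. The point estimates went both ways, with MMVL30-int, RLTR6_Mm and RLTR6C_Mm below 0 and RLTR6-int and RLTR6B_Mm above 0. The median log2 fold change of the 5 rows was -0.21, and their values ran from -0.44 to 0.23. KO and WT libraries were fully apart in 2 of the 5 rows, RLTR6_Mm and RLTR6C_Mm, both with lower levels in KO. Over all tested rows the KO libraries lay entirely below the WT libraries in 13.4% and entirely above them in 12.4%, 25.8% together.

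**Figure D1:**
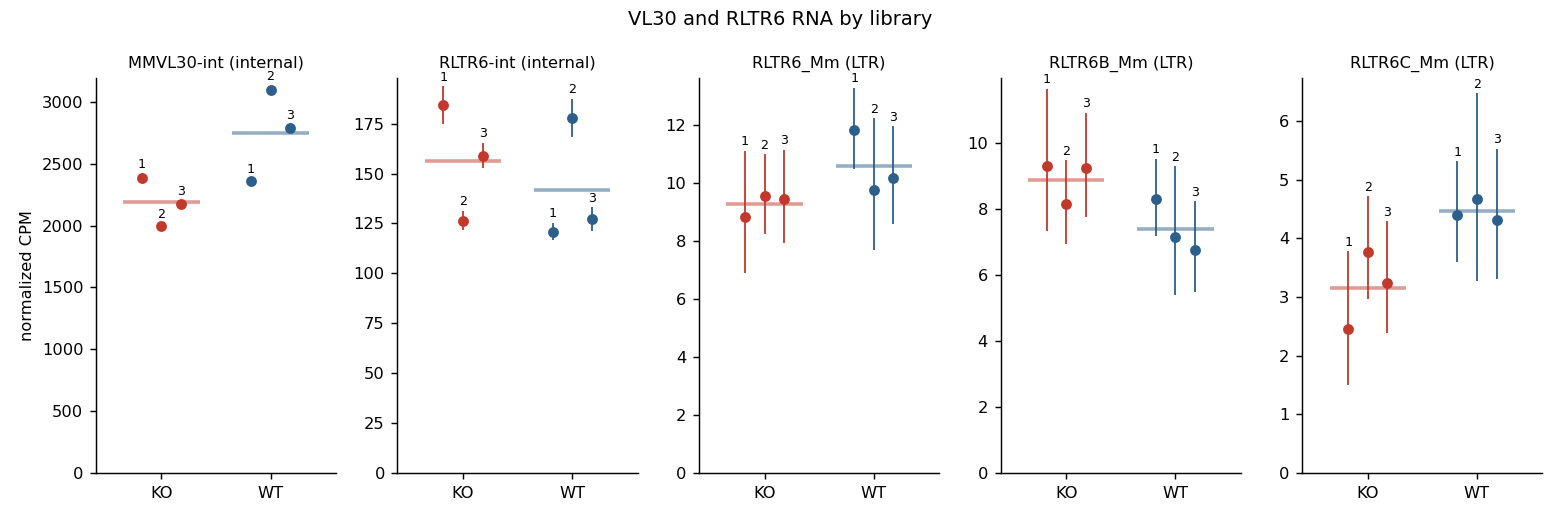
Normalized CPM (y axis, from 0) of each VL30 and RLTR6 row in the 3 KO and the 3 WT libraries. Points are libraries marked with their replicate number, thin bars are exact 95% Poisson intervals of the counts and horizontal lines are group means. MMVL30-int stood at 1996 to 2388 in KO libraries, WT replicate 1 lay in that range, and WT replicates 2 and 3 lay above it.

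MMVL30-int is the main internal row and carried nearly all VL30 counts. It had 19494, 40197 and 32272 counts in KO replicates 1, 2 and 3, against 56966, 23784 and 40084 in WT replicates 1, 2 and 3. On the normalized scale these were 2388, 1996 and 2177 CPM in KO, against 2364, 3093 and 2790 CPM in WT. WT replicates 2 and 3 were above every KO library, while WT replicate 1 was just below KO replicate 1. The mean was 2187 ± 196 normalized CPM in KO and 2749 ± 366 in WT (SD, n = 3 each). The log2 fold change was -0.33 ± 0.13 (SE; edgeR adjusted p = 0.188), and its 95% interval ran from 0.649 to 0.976 of the WT level. Ranked by p it stood at place 205 of 1193, and 115 rows had a lower log2 fold change. The call depended on the method: MMVL30-int passed with DESeq2 at a log2 fold change of -0.33 (adjusted p = 0.0153) and with the rRNA level of each library as a covariate at -0.38 (edgeR adjusted p = 0.00349). Leaving out single libraries gave -0.43 to -0.24, with no call in any of the 6 fits. In bulk libraries such as these, less VL30 RNA per cell and fewer cells that make it cannot be told apart.

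RLTR6-int, the smaller internal row, had a point estimate on the other side of 0. It was at 184, 126 and 159 normalized CPM in KO replicates 1, 2 and 3, against 121, 178 and 127 in WT replicates 1, 2 and 3. The genotypes overlapped over almost their whole range. The means were 157 ± 29.0 in KO and 142 ± 31.2 in WT (SD, n = 3 each), a log2 fold change of 0.14 ± 0.17 (SE; edgeR adjusted p = 0.692). The interval ran from 0.840 to 1.45 of the WT level, and on the scale of total counts, rRNA included, the estimate was below 0, at -0.22. Single libraries moved it between 0.0064 without KO replicate 1 and 0.33 without WT replicate 2.

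RLTR6_Mm, the LTR row with the most VL30 LTR counts on average, had 72, 192 and 140 counts in KO replicates 1, 2 and 3, against 285, 75 and 146 in WT replicates 1, 2 and 3. These were 8.82, 9.54 and 9.44 normalized CPM in KO, against 11.8, 9.75 and 10.2 in WT. Every KO library was below every WT library, though KO replicate 2 and WT replicate 2 were close together. The log2 fold change was -0.21 ± 0.11 (SE; edgeR adjusted p = 0.361), and -0.10 without WT replicate 1, the library with the least rRNA. Counting error alone gives a coefficient of variation of 9.35% in KO and 8.89% in WT for this row, and the observed values were 4.19% in KO and 10.4% in WT.

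RLTR6B_Mm, a second LTR subfamily, had an estimate above 0. It was at 9.31, 8.14 and 9.24 normalized CPM in KO replicates 1, 2 and 3, against 8.30, 7.15 and 6.75 in WT replicates 1, 2 and 3. KO replicates 1 and 3 exceeded all WT libraries, and KO replicate 2 was just under WT replicate 1. The log2 fold change was 0.23 ± 0.13 (SE; edgeR adjusted p = 0.379), and 0.35 without WT replicate 1. With total counts as the scale the estimate turned to -0.24.

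RLTR6C_Mm, the rarest row, had 20, 76 and 48 counts in KO replicates 1, 2 and 3, against 106, 36 and 62 in WT replicates 1, 2 and 3. These were 2.45, 3.77 and 3.24 normalized CPM in KO, against 4.40, 4.68 and 4.32 in WT. All KO libraries lay below all WT libraries, and KO replicate 1 was the lowest. The log2 fold change, -0.44 ± 0.20 (SE), was the lowest of the members (edgeR adjusted p = 0.253). The 20 counts of KO replicate 1 have an exact 95% Poisson interval of 12.2 to 30.9, or 1.50 to 3.78 normalized CPM, which covers counting error only. That interval reaches the level of KO replicate 2 but not that of any WT library. The WT intervals start at 3.60, 3.28 and 3.31 in replicates 1, 2 and 3, so each overlaps it. In KO replicate 2 the interval, 2.97 to 4.72, covers the levels of all WT libraries.

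**Figure D2:**
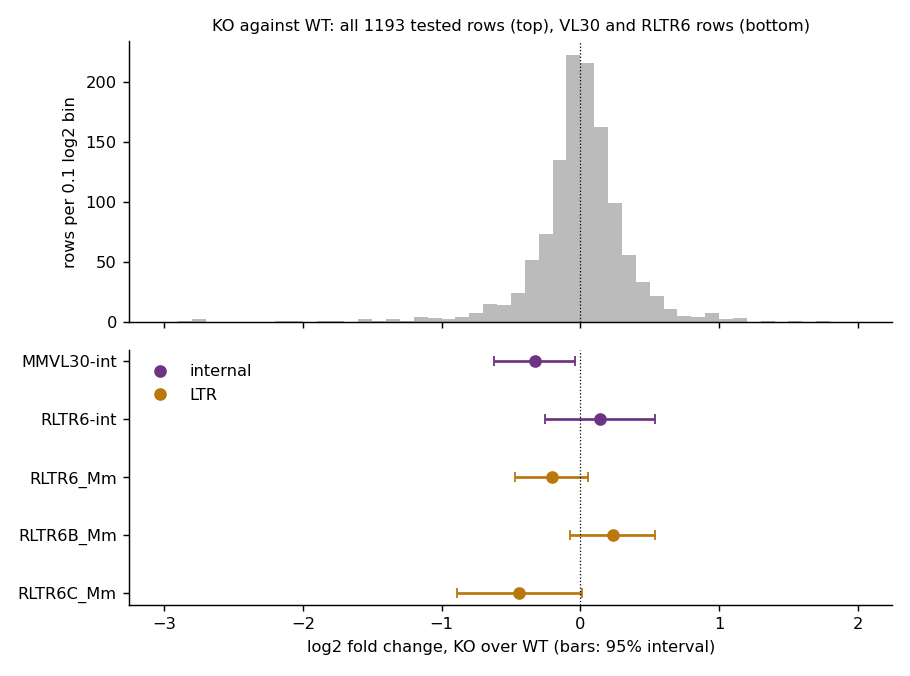
Log2 fold change of KO over WT (x axis). The upper panel counts all 1193 tested rows in bins of 0.1 (y axis, rows), and the lower panel shows each VL30 and RLTR6 row with its 95% interval from the edgeR fit, in separate colours for internal and LTR rows. MMVL30-int at -0.33 has an interval just below 0, and those of the other 4 rows cross 0.

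The internal and LTR rows were next compared within each library, which needs no scaling between libraries. MMVL30-int, the denominator of these ratios, had itself a log2 fold change of -0.33. A row at an unchanged level would then also have a higher ratio in KO, so the ratios are not separate from that estimate. LTR rows together gave 8.62, 10.7 and 10.1 counts per 1000 MMVL30-int counts in KO replicates 1, 2 and 3, against 10.4, 6.98 and 7.61 in WT replicates 1, 2 and 3. WT replicate 1 lay inside the KO range and the other WT libraries lay below it. The mean was 9.81 ± 1.09 in KO and 8.32 ± 1.81 in WT (SD, n = 3 each), and the log2 ratio differed by 0.25 (exact two-sided permutation p = 0.3, Benjamini-Hochberg adjusted 0.6 over 4 ratios). With 3 against 3 libraries the smallest p this test can give is 0.1. Within each genotype this ratio was lower in libraries with more rRNA, and those of RLTR6_Mm and RLTR6C_Mm below had the same order. Without the 2 libraries lowest in rRNA the log2 difference of all LTR rows was 0.35, and without the 2 highest 0.23.

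Point estimates of this ratio differed among the LTR subfamilies. RLTR6B_Mm had 3.90, 4.08 and 4.25 counts per 1000 MMVL30-int counts in KO replicates 1, 2 and 3, against 3.51, 2.31 and 2.42 in WT replicates 1, 2 and 3. The genotypes did not overlap, and the KO libraries lay close together. How large a share of all tested rows is apart in its ratio to MMVL30-int was not computed. The log2 ratio differed by 0.59, or 1.51-fold (exact two-sided permutation p = 0.1, the smallest the design allows, and 0.4 adjusted over 4 ratios). On normalized CPM the log2 fold change of RLTR6B_Mm itself was 0.23 and that of MMVL30-int -0.33. WT replicate 1 was nearest to KO: its binomial interval, 3.04 to 4.03, reached above the value of KO replicate 1. RLTR6_Mm had 3.69, 4.78 and 4.34 per 1000 in KO, against 5.003, 3.15 and 3.64 in WT, and the groups overlapped (log2 difference 0.14, exact two-sided permutation p = 0.6). RLTR6C_Mm had 1.03, 1.89 and 1.49 per 1000 in KO, against 1.86, 1.51 and 1.55 in WT (log2 difference -0.20, exact two-sided permutation p = 0.5). The direction of RLTR6C_Mm rested on KO replicate 1, without which the difference was 0.04, and that of RLTR6_Mm on WT replicate 2, without which it was -0.01.

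**Figure D3:**
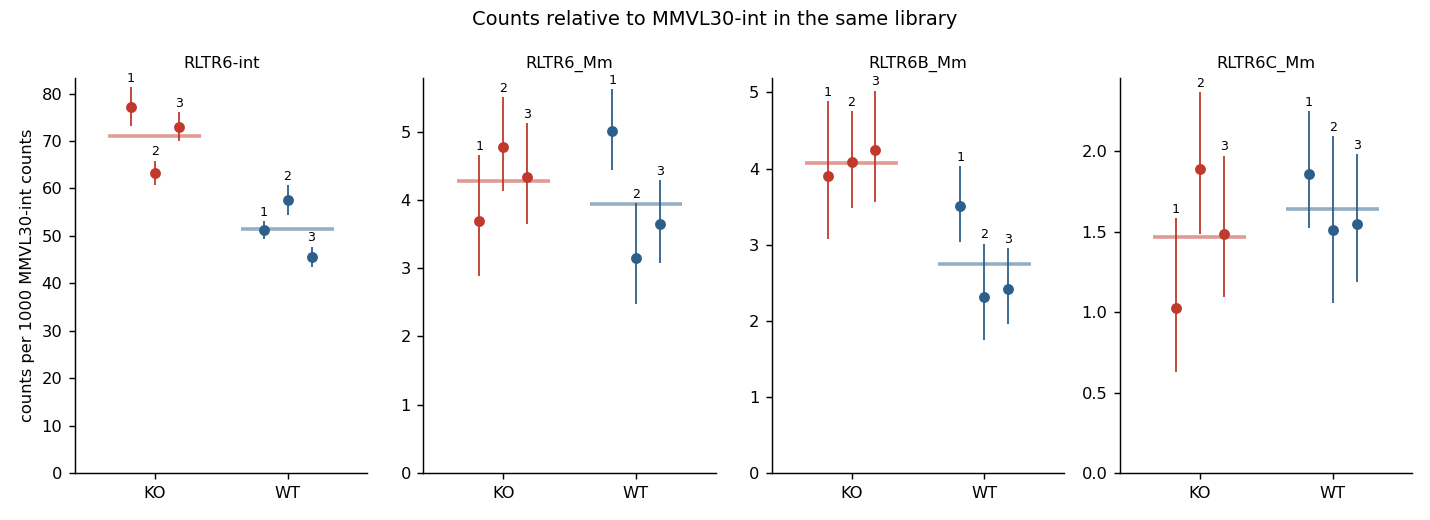
Counts of RLTR6-int and of each LTR row per 1000 MMVL30-int counts of the same library (y axis, from 0) in KO and WT. Points are libraries marked with their replicate number, thin bars are exact 95% binomial intervals and horizontal lines are group means. KO and WT libraries are apart for RLTR6-int and RLTR6B_Mm and overlap for RLTR6_Mm and RLTR6C_Mm. How large a share of all tested rows is apart in this ratio was not computed.

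The proportion between the 2 internal rows was also compared. This ratio and the LTR make-up below were chosen after the values had been seen and are given without a test. RLTR6-int had 77.2, 63.3 and 73.0 counts per 1000 MMVL30-int counts in KO replicates 1, 2 and 3, against 51.2, 57.5 and 45.6 in WT replicates 1, 2 and 3. Every KO library exceeded every WT library, and the nearest binomial intervals, 60.8 to 65.9 in KO replicate 2 and 54.4 to 60.7 in WT replicate 2, just failed to meet. As above, the share of all tested rows apart in such a ratio was not computed. The mean was 71.1 ± 7.12 in KO and 51.4 ± 5.96 in WT (SD, n = 3 each), 1.39-fold by the log2 difference of 0.47. Without any single library this difference was 0.39 to 0.55. On normalized CPM the log2 fold change of RLTR6-int itself was 0.14 and that of MMVL30-int -0.33. The sources used here do not say how reads matching both internal rows were divided between them, and the part of this in the ratio was not tested.

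Among the LTR counts alone, RLTR6B_Mm took 45.2%, 38.0% and 42.2% in KO replicates 1, 2 and 3, against 33.8%, 33.1% and 31.8% in WT replicates 1, 2 and 3. The WT libraries were nearly equal and all lay below the KO libraries. How often other sets of LTR rows are apart in such a make-up was not computed. The shares of the 3 LTR rows make up a fixed whole, so a higher share of RLTR6B_Mm lowers the others and they are not separate results. RLTR6C_Mm took 14.8% ± 2.84 of LTR counts in KO and 19.98% ± 1.90 in WT, and RLTR6_Mm 43.5% ± 0.860 in KO and 47.1% ± 1.66 in WT (SD, n = 3 each). RLTR6B_Mm counts were 1.06, 0.854 and 0.979 times RLTR6_Mm counts in KO, against 0.702, 0.733 and 0.664 in WT. These ratios rest on 166 to 591 LTR counts per library, and the binomial interval of WT replicate 2, 0.508 to 1.05, covers all KO values except that of KO replicate 1.

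As a share of RNA, VL30 was a minor part of the repeat counts but about as large as all other ERV1 rows together. The 5 rows took 0.723%, 0.996% and 0.883% of the counts outside rRNA in KO replicates 1, 2 and 3, against 1.16%, 0.885% and 1.04% in WT replicates 1, 2 and 3. WT replicate 2 overlapped the KO range, and the means of 0.867% ± 0.137 in KO and 1.03% ± 0.138 in WT (SD, n = 3 each) gave an exact two-sided permutation p of 0.2. The difference in means, -0.162 percentage points, was -0.0899 without KO replicate 1 and -0.0963 without WT replicate 1. They took 2.89% ± 1.06 of LTR class counts in KO and 3.71% ± 1.39 in WT (exact two-sided permutation p = 0.5, n = 3 each). Within ERV1 they took 49.0%, 45.8% and 47.5% of the counts in KO, against 48.1%, 52.8% and 51.2% in WT. MMVL30-int supplied 92.1% to 93.1% of the member counts in KO libraries and 93.9% to 94.95% in WT libraries.

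The level of both internal rows moved with the rRNA share of the library within each genotype. In KO, MMVL30-int was highest in replicate 1, which had the most rRNA, and lowest in replicate 2, which had the least, and in WT replicates 2 and 1 held those places. RLTR6-int had the same order in both genotypes. RLTR6_Mm had its highest level, 11.8 normalized CPM, in WT replicate 1, the library with the least rRNA. At close rRNA shares, MMVL30-int in KO replicate 3 was 0.780 of its level in WT replicate 3, and in KO replicate 1 it was 0.772 of that in WT replicate 2. RLTR6B_Mm in the same pairs stood at 1.37 and 1.30 of the WT library and RLTR6-int at 1.25 and 1.04. RLTR6_Mm stood at 0.929 and 0.904 and RLTR6C_Mm at 0.750 and 0.523. Each pair holds only 1 library per genotype, was picked for its rRNA shares and was not tested. With the libraries lowest in rRNA left out, KO replicate 2 and WT replicate 1, the log2 fold change of MMVL30-int was -0.36 and that of RLTR6B_Mm 0.43, and neither passed (edgeR adjusted p = 0.350 and 0.315). The order along rRNA depends on the scale: as CPM of the counts outside rRNA, MMVL30-int stood at 6662, 9277 and 8150 in KO replicates 1, 2 and 3, against 10934, 8316 and 9897 in WT replicates 1, 2 and 3, so that the libraries with the least rRNA were the highest.

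**Figure D4:**
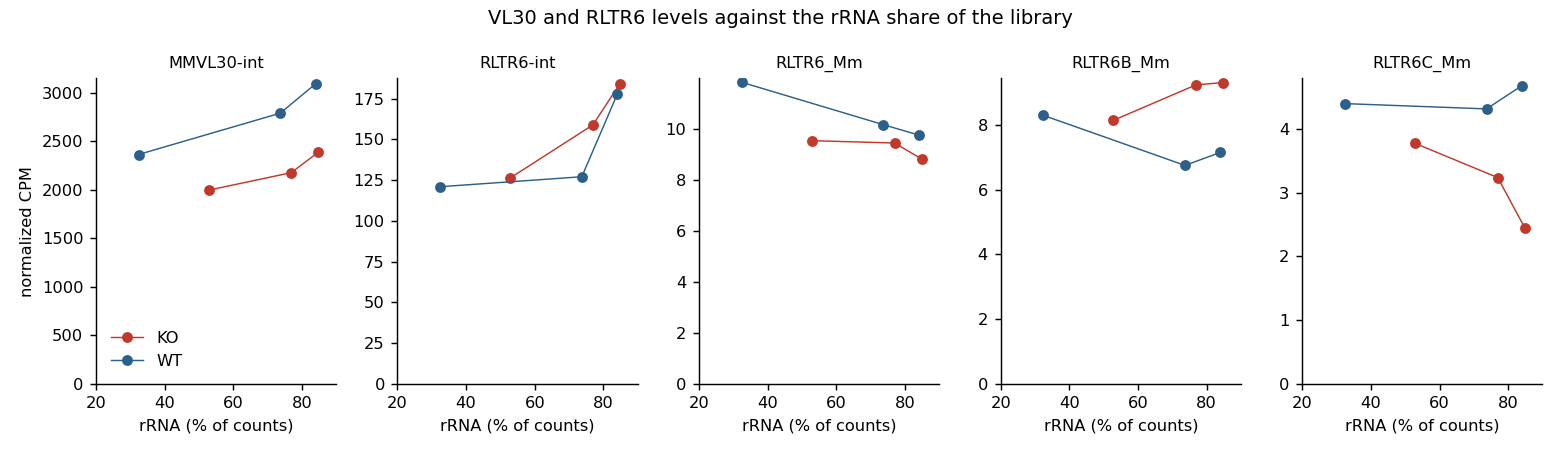
Normalized CPM of each VL30 and RLTR6 row (y axis, from 0) against the rRNA share of the library in percent of all counts (x axis), with the 3 KO and the 3 WT libraries joined by lines. MMVL30-int and RLTR6-int are higher in libraries with more rRNA within each genotype, and the KO line of MMVL30-int lies below the WT line.

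The rows whose profile over the 6 libraries was most like that of MMVL30-int were not other VL30 rows. Likeness was the root mean square difference between log2 normalized CPM centred on each row's mean, taken over the 935 other tested rows whose mean count reached 50. MT2B2, an LTR of the ERVL family, was nearest at 0.03 and stood at 5780 ± 452 normalized CPM in KO and 7024 ± 960 in WT. The DNA transposon MER45C followed at 0.04 and LTRIS3, an ERV1 LTR, at 0.05, and then the DNA transposons X6b_DNA and Kanga1c at 0.07 and 0.08. They were picked as the smallest of 935 differences, and this measure includes the difference between KO and WT. Fold changes near that of MMVL30-int therefore follow from the choice of rows. Some had few counts, such as Kanga1c with a mean of 71.2, and whether the likeness exceeds chance was not tested. None of these 5 rows passed the test as reported (MT2B2 and MER45C did with the rRNA covariate, as MMVL30-int did), and their log2 fold changes ran from -0.43 in Kanga1c to -0.25 in X6b_DNA. The other members were farther away, at 0.23 for RLTR6_Mm, 0.27 for RLTR6-int, 0.29 for RLTR6C_Mm and 0.35 for RLTR6B_Mm, where the median of the 935 rows was 0.25. Counting error is part of the distance of the LTR rows, which had few counts.

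Murine leukaemia virus elements, whose particles are known to carry VL30 RNA, and the related GLN elements had 2 of 16 rows lower in KO and 0 higher by edgeR, where 3.60% of all tested rows were lower. Their median log2 fold change was -0.10. MMERGLN-int, the GLN internal region, fell to 542, 502 and 469 normalized CPM in KO replicates 1, 2 and 3, against 642, 723 and 685 in WT replicates 1, 2 and 3, a log2 fold change of -0.44 ± 0.08 (SE; edgeR adjusted p = 0.0192). RLTR4_MM-int, a leukaemia virus internal region, fell to 154, 148 and 144 in KO, against 184, 186 and 173 in WT (log2 fold change -0.28, edgeR adjusted p = 0.0213). MMERGLN-int lost its call without KO replicate 2 or 3 or WT replicate 2 or 3 (-0.44, -0.39, -0.40 and -0.43), and RLTR4_MM-int without KO replicate 2 or 3 or any WT replicate (-0.31 to -0.26). Without the 2 libraries lowest in rRNA neither row passed (-0.47 and -0.26, edgeR adjusted p = 0.140 and 0.255), nor did either with the replicate block (-0.44 and -0.28, edgeR adjusted p = 0.101 for both). RLTR4_MM-int also lost its call without the 2 libraries highest in rRNA (-0.31, edgeR adjusted p = 0.0652), and both rows lost theirs on the scales of total counts and of counts outside rRNA. MMVL30-int had a point estimate between these and a larger standard error. KO libraries lay entirely below WT libraries in 4 of the 16 rows and entirely above in 0, against 13.4% and 12.4% of all tested rows. The genotypes overlapped in MuLV-int, another leukaemia virus internal row (-0.11, edgeR adjusted p = 0.446). They also overlapped in RLTR4_Mm, the LTR row that goes with RLTR4_MM-int (-0.06, edgeR adjusted p = 0.684). Of the 86 other ERV1 rows tested, 1 was higher and 2 were lower (median 0.05). B2 SINEs, short elements that also respond to stress, had 1 of 3 rows named B2_ lower, with log2 fold changes from -0.62 to -0.26. B3 and B3A, also labelled as B2 family, overlapped between genotypes at -0.05 and -0.04 (edgeR adjusted p = 0.931 and 0.917).

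For other young mouse elements the LTR row and the internal row were set side by side in the same way. RLTRETN_Mm counts per 1000 MMETn-int counts were 95.1 to 102 in KO and 98.4 to 112 in WT, and both rows rose, at log2 fold changes of 0.55 for the LTR and 0.61 for the internal row (edgeR adjusted p = 0.00137 and 0.00556), a call that MMETn-int lost without the 2 libraries lowest in rRNA, at 0.56. Neither row passed on the scale of total counts (0.20 for the LTR, 0.30 for the internal row) or of counts outside rRNA (0.59 and 0.66). IAPLTR1_Mm stood at 57.7 to 60.9 per 1000 IAPEz-int counts in KO and 53.4 to 59.1 in WT, and MMERGLN_LTR at 20.6 to 27.5 per 1000 MMERGLN-int counts in KO and 21.0 to 25.0 in WT. RLTR4_Mm stood at 246 to 274 per 1000 RLTR4_MM-int counts in KO and 206 to 241 in WT, without overlap. The log2 KO minus WT difference in these 4 pairs ran from -0.07 to 0.22, beside 0.25 for all VL30 LTR rows. By single VL30 LTR row the difference was 0.14 for RLTR6_Mm, 0.59 for RLTR6B_Mm and -0.20 for RLTR6C_Mm. For MMERVK10C-int with RLTR10C it was -0.07 and for MERVL-int with MT2_Mm 0.05, and in both the ratio ranged widely within each genotype. Whether the VL30 ratio differs from those of other elements was not tested.

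**Figure D5:**
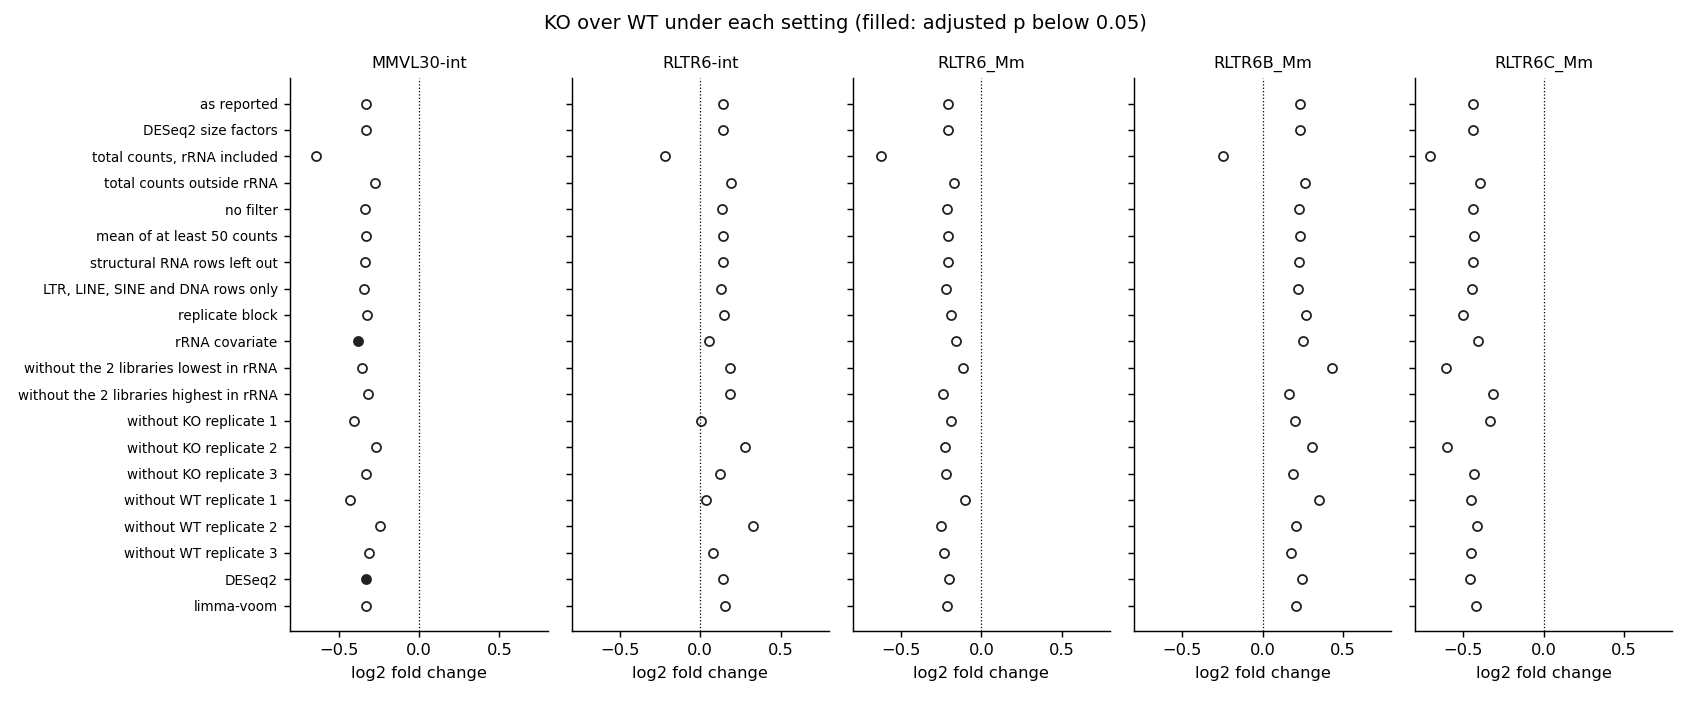
Log2 fold change of KO over WT (x axis) of each VL30 and RLTR6 row under the reported fit and 19 other settings (y axis), with filled points where the adjusted p was below 0.05. MMVL30-int lies below 0 in every setting shown and is filled with the rRNA covariate and with DESeq2, and no other row is filled.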

How the data were processed

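The authors deposited, for each of 6 libraries, a table of estimated counts for 1336 repeat rows, without normalization; the file names call them fractional. All values were whole. The tools Bowtie2, Trimmomatic and FastQC 0.11.5 and the builds mm10 and GRCm38 are named, per the submitters' processing notes. The sources used here do not give the counting tool, the repeat annotation, the strand treatment or the division of shared reads. No coordinates or repeat sequences were used here.

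Groups and replicate numbers came from the sample titles. In R 4.3.3 with edgeR 4.0.16, filterByExpr removed 143 rows, TMM set effective library sizes (factors 0.423 to 3.13), and the quasi-likelihood test compared KO with WT over 1193 rows with Benjamini-Hochberg adjustment at 0.05. Standard errors came from the test statistic. Ratios and shares used exact two-sided permutation tests. The procedure was tested on counts simulated from the fitted means and dispersions. The simulation held no shift linked to rRNA, so it cannot show how the procedure handles one. Alternatives used DESeq2 1.42.0, limma 3.58.1 (voom), other scalings and filters, a replicate block, an rRNA covariate and fewer libraries. Named rows were all members, the 5 rows most like MMVL30-int, called or lowest-p leukaemia virus and GLN rows, and fixed internal and LTR pairs. MuLV-int, B3 and B3A were added for comparison. Members, lists and tests were chosen with earlier results of these data known.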

Additional observations from a re-analysis of the deposited data

How the results depend on the processing

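The number of called rows over the whole table, 69 as reported, was 0 on the scale of total counts (edgeR, 3 rows at an unadjusted p under 0.05), where the median of all rows was -0.36, and 6 on the scale of counts outside rRNA. It was 41 without structural RNA rows and 41 with LTR, LINE, SINE and DNA rows only, 24 with the replicate block, 9 without the 2 libraries lowest in rRNA, 36 without the 2 highest, and 22 to 69 without single libraries. The number of called VL30 and RLTR6 rows, 0 as reported, was 1 with the rRNA covariate and 1 with DESeq2, MMVL30-int in both, and 0 in the other 17 settings, which include leaving out single libraries (0 to 0). MMVL30-int stayed below 0 in all 19 settings, from -0.64 to -0.24. RLTR6-int and RLTR6B_Mm turned below 0 on the total-count scale, at -0.22 and -0.24. The LTR to MMVL30-int log2 ratio kept its sign for all LTR rows (0.14 to 0.42) and for RLTR6B_Mm (0.48 to 0.78), while single libraries moved RLTR6_Mm between -0.0078 and 0.33 and RLTR6C_Mm between -0.40 and 0.038. The KO minus WT difference in share of LTR class counts, -0.827 percentage points, was -1.48 to -0.0946 without single libraries. Deviations of same-numbered KO and WT libraries correlated at -0.43, -0.38 and -0.0015 for replicates 1, 2 and 3, and the samples were left unpaired; with the replicate block MMVL30-int was at -0.33, and the ratio of all LTR rows differed by 0.25 as reported. The settings without extreme rRNA libraries were added for the ratios after seeing the data. The depth of the LTR rows, 20 to 285 counts per library, limits what can be seen in them, since counting error alone is 8.89% to 16.7%.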
